A study of Mus musculus with 16 samples.

Results

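The PDGF, FGF, EGF and HGF receptors are cell-surface tyrosine kinases that carry growth signals into the cell, and 7 of their genes are described here: Pdgfra, Pdgfrb, Fgfr1, Fgfr2, Fgfr3, Egfr and Met. They were chosen by name, as the entries of the RNA table whose gene symbol equals a member, and make up 7 of 22869 genes. Each was followed in RNA, in CpG methylation at its promoter and within 50 kb of its start, and in the histone regions deposited for old and young mice. The study compared pancreatic β cells of aged and juvenile mice, isolated from islets by flow cytometry.

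The old RNA group was 3 libraries, from MIP-GFP/Bl6 mice of 15, 16 and 17 months, and the young RNA group was 2 libraries, from MIP-GFP/Bl6 mice of 4 to 6 weeks. In MIP-GFP mice a green fluorescent protein is driven by the insulin promoter, so the sort can also pass any cell in which that promoter is active. Each RNA library came from a pool of 5 to 10 mice, so the spread between libraries is a spread between pools. Histone marks and methylation came from C57Bl6 mice, labelled 16 to 18 months for old and 4 to 6 weeks for young. The study's design text gives 18 to 22 months for the old bisulfite pool, so its exact age is uncertain. H3K4me1, H3K27me3 and CpG methylation were held as 1 sample per age, and H3K27ac as 1 young sample.

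A receptor tyrosine kinase binds its ligand outside the cell, pairs with a second receptor and phosphorylates itself, which recruits adaptors and switches on the Ras, MAP kinase and PI3-kinase cascades. In mouse islets, PDGF receptor signalling is known to support the replication of juvenile β cells, and signalling through Egfr and Met to support growth of β-cell mass. Outside the β cell, Pdgfra marks fibroblasts and other mesenchymal cells and Pdgfrb marks pericytes, the contractile cells that wrap capillaries.

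The old RNA libraries held 23559908 to 33562822 counts, and the young ones 6377619 and 12892123. The young pair is named by depth as shallower and deeper. Their column names also carry different labels, which the names do not explain, so depth may not be the only difference between them. Ins1, an insulin gene, took 22.7 to 28.3% of counts in old libraries and 24.1 and 22.0% in the shallower and the deeper young library. Of 15544 genes tested, 492 rose and 1232 fell in the old libraries with edgeR's quasi-likelihood test and Benjamini-Hochberg adjustment. In the bisulfite libraries, 15451359 CpGs had at least 5 reads in both ages, with a mean methylation of 74.2% in old and 74.4% in young.

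Promoter sequences show what the methylation values below were read on. Entries of the RefSeq table of build GRCm38.p6 matched 5 of the 7 receptors by symbol. Printed here are those entries in which every CpG of the sequence lay at the same distance from the start as a CpG measured in the mm9 files. They are the 250 bases before the starts of Fgfr3 (chr5:33722056-33722305, plus strand), Met (chr6:17463707-17463956, plus strand), Egfr (chr11:16751953-16752202, plus strand) and Fgfr2 (chr7:130266809-130267058, minus strand). Capitals mark CpGs, the only sites where methylation was read.
Fgfr3: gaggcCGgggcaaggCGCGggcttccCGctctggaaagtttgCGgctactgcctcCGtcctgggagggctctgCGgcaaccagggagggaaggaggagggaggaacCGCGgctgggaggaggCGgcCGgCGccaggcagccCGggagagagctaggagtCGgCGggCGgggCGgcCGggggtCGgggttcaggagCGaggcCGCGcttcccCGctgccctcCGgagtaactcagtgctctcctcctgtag
Met: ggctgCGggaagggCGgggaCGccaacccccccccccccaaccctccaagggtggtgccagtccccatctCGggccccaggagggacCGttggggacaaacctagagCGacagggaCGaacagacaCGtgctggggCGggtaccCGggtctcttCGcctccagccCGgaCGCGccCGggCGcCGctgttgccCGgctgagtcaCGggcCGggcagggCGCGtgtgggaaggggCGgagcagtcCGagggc
Egfr: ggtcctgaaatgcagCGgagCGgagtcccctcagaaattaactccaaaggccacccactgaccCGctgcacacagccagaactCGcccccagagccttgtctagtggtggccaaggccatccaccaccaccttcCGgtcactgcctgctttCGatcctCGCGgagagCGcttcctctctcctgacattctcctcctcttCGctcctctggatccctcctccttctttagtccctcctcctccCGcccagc
Fgfr2: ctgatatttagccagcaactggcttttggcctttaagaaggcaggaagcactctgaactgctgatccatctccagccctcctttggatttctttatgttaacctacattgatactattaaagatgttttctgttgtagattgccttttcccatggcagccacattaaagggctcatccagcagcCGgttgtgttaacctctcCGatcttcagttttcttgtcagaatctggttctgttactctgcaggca
The Fgfr3 and Met sequences each hold 24 CpGs, a number reached by 12.0% of the table's 32851 promoter entries. Egfr holds 11 and Fgfr2 only 2, against a median of 6 over all entries; a CpG occurs in 92.1% of them. The CpG-rich pair was nearly free of methylation: 4.19% of 1265 calls in the old library and 2.62% of 1831 in the young one for Fgfr3, and 3.80% of 1001 calls in old and 1.30% of 1228 in young for Met. At Egfr 16.9% of 544 calls were methylated in old and 13.5% of 532 in young. The 2 CpGs before Fgfr2 were mostly methylated, at 73.3% of 30 calls in old (95% Wilson interval 55.6 to 85.8%) and 60.0% of 40 calls in young (44.6 to 73.7%). Such intervals cover counting error only, and reads without molecular identifiers are not independent molecules.

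Fgfr1, Fgfr2 and Fgfr3 all fell in the old libraries. Fgfr1 (chr8:26629244-26686186, mm9), which binds many FGFs, had 3.22, 2.03 and 4.88 CPM (counts scaled to the size of the library) in the 15-, 16- and 17-month pools, against 68.1 and 54.5 CPM in the shallower and the deeper young library. Every old pool lay far under both young libraries. Its log2 fold change, old over young, was -4.01 ± 0.50 (SE; edgeR adjusted p = 0.00554). Fgfr2 (chr7:137305965-137410322, mm9), a receptor of epithelial cells, had 4.24, 1.64 and 4.71 CPM in the old pools in the same order, against 48.8 and 22.4 CPM in the young libraries. The young libraries differed from each other, with the shallower one the higher, and no old pool reached either. The log2 fold change of Fgfr2 was -3.17 ± 0.64 (SE; edgeR adjusted p = 0.0238). Fgfr3 (chr5:34064955-34079717, mm9), known from cartilage as a brake on growth, had 0.0750, 1.40 and 1.74 CPM in the old pools, against 35.0 and 21.3 CPM in the young libraries. The 15-month pool, with 2 Fgfr3 reads, stood under the other old pools, which held 47 and 41 reads. For Fgfr3 the log2 fold change was -4.52 ± 1.05 (SE; edgeR adjusted p = 0.0341).

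Both PDGF receptors fell as well. Pdgfrb (chr18:61204804-61244721, mm9), the receptor of PDGF-B, had 4.39, 3.07 and 1.02 CPM in the old pools, against 42.6 and 51.1 CPM in the young libraries. Here the young libraries were close to each other and the 17-month pool was the lowest. Its log2 fold change was -3.92 ± 0.60 (SE; edgeR adjusted p = 0.0103). Pdgfra (chr5:75552191-75594229, mm9), the receptor of PDGF-A, had 1, 0 and 0 reads in the old pools, against 10 and 470 reads in the shallower and the deeper young library. In CPM these were 0.0375, 0 and 0 in old and 1.57 and 36.5 in young. Nearly all Pdgfra reads thus came from 1 young library, and the groups did not overlap. Pooled over libraries, young had 2087 times the old level, with an exact 95% interval of 373 to 82611 for counting error. edgeR gave a log2 fold change of -9.90 ± 1.69 (SE; adjusted p = 0.0151), a value that depends on how the zeros are treated.

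Met (chr6:17413957-17523980, mm9), the receptor of hepatocyte growth factor, had 3.82, 2.80 and 2.76 CPM in the old pools, against 10.0 and 26.8 CPM in the shallower and the deeper young library. All old pools lay under both young libraries, but the young libraries were far apart. Met did not pass the threshold, with a log2 fold change of -2.41 ± 0.66 (SE; edgeR adjusted p = 0.0534). Egfr (chr11:16652206-16813910, mm9), the receptor of EGF, TGF-α and betacellulin, had 25.1, 24.3 and 16.9 CPM in the old pools, against 6.74 and 21.9 CPM in the young libraries. The deeper young library lay inside the range of the old pools, so the groups overlapped. The log2 fold change of Egfr was 0.77 ± 0.56 (SE; edgeR adjusted p = 0.394). A shorter Egfr transcript, NM_007912, gave 14.7, 8.55 and 9.08 CPM in old pools, against 3.29 and 14.5 CPM in young libraries, the same overlap. Met had a single transcript. Transcripts of each of the remaining receptors held nearly equal counts, so reads they share were counted for each.

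**Figure D1:**
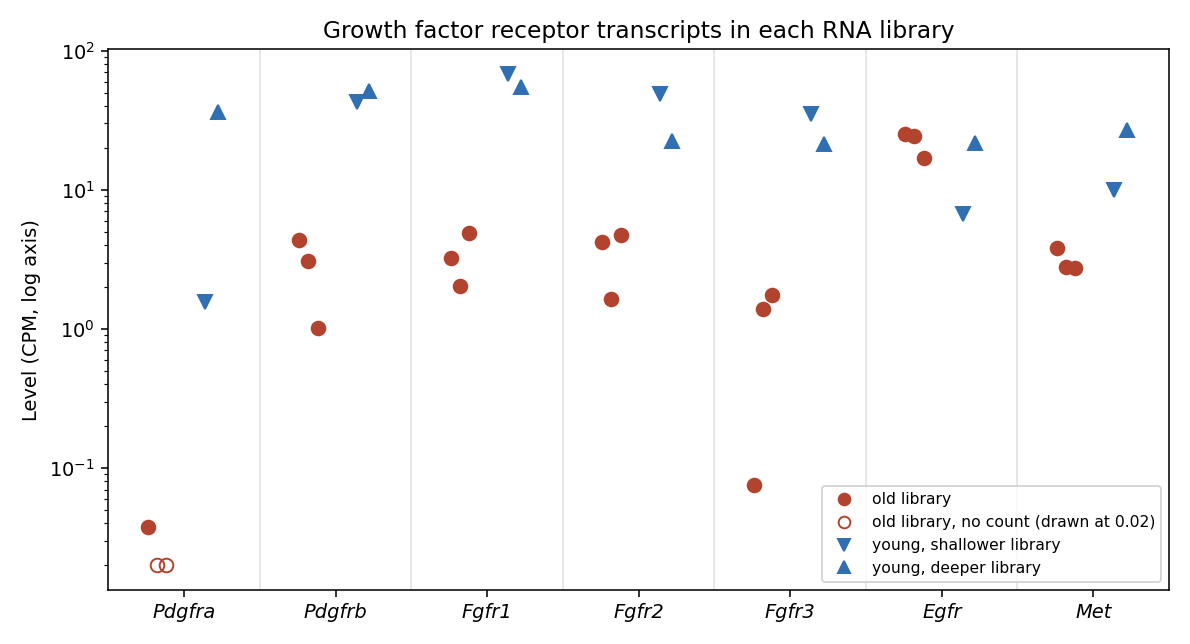
Level of each receptor in each RNA library, in CPM on a log axis, with the 3 old pools (circles) left of the 2 young libraries (triangles). Old pools lie under both young libraries for every receptor other than Egfr, where the deeper young library lies among them; open circles at 0.02 are libraries without a read.

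In all, 5 of the 7 receptors fell, none rose and 2 were not called, with Met short of the threshold. Among all genes tested 7.93% fell and 3.17% rose. The median log2 fold change of the receptors was -3.92, against -0.05 over all genes tested. For 6 receptors the old and young libraries did not overlap, which was so for 46.8% of all genes. All 7 passed the filter on low counts.

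How far each call rested on single libraries differed between receptors. Pdgfrb and Fgfr1 were called under all 9 alternatives, with log2 fold changes of -4.37 to -3.54 for Pdgfrb and -4.44 to -3.76 for Fgfr1. Leaving out any old pool ended the calls of Pdgfra and Fgfr2: the adjusted p of Pdgfra was 0.0672, 0.0562 and 0.0731 without the 15-, 16- and 17-month pool, and that of Fgfr2 was 0.0861, 0.0671 and 0.0731. The call of Fgfr3 ended without the 16-month (0.0933) or the 17-month pool (0.0940). So 3, 2 and 2 receptors were called with 1 old pool left out in turn, although the log2 fold changes of these 5 receptors were -2.85 or lower in those fits. Calls over all genes dropped as well, from 1724 of 15544 tested with every library. They were 331 of 14905, 441 of 14846 and 368 of 15072 without the 15-, 16- and 17-month pool. Without the deeper young library Pdgfra had too few reads to be tested.

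Without that library Egfr was higher in the old pools, with a log2 fold change of 1.86, and without the shallower one it was 0.18. These fits hold a single young library and assume that it varies like the old ones. Met had a log2 fold change of -2.93 without the shallower young library and -1.53 without the deeper one. With all libraries, Met was called with RLE size factors (edgeR adjusted p = 0.0457) and in DESeq2 (adjusted p = 0.00223).

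**Figure D2:**
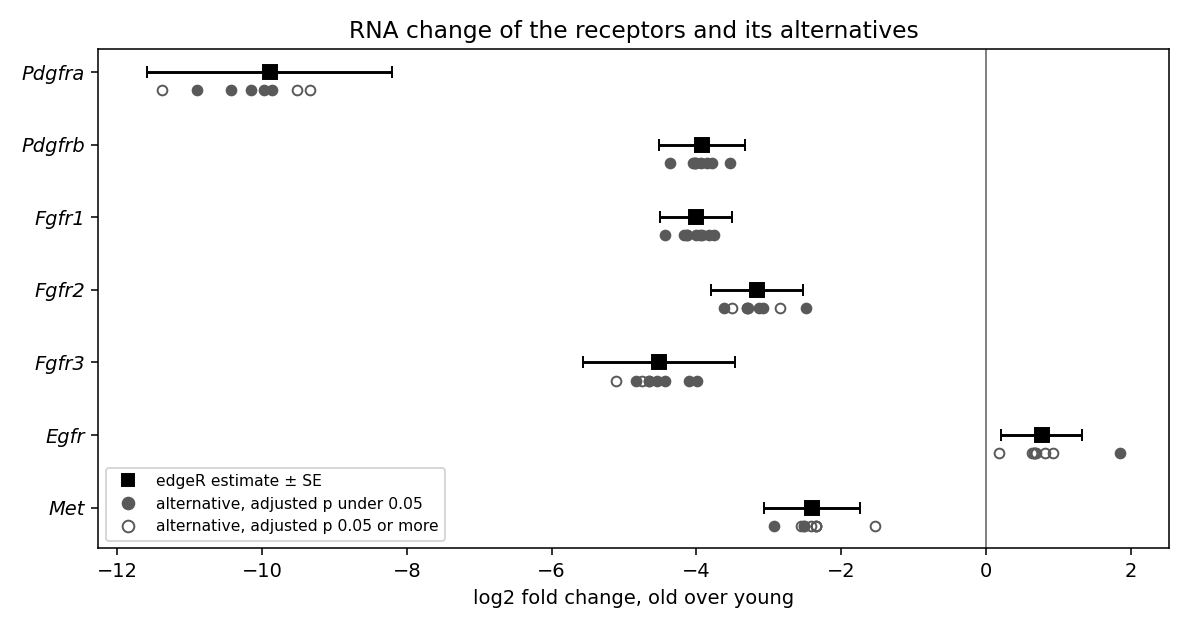
Log2 fold change of each receptor, old over young (squares, with the SE as bars), and the values under the alternative fits (circles, filled where the adjusted p is under 0.05). Pdgfrb and Fgfr1 are filled throughout; Egfr lies right of 0 in all fits and is filled in 1.

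The order of the receptors within a library was read from the authors' deposited FPKM values, which are scaled per transcript length. Those values cannot be used for the 17-month pool, whose column repeats that of the shallower young library in 100% of entries. Egfr was the highest of the 7 in the 15- and 16-month pools, with 6.33 and 7.48 FPKM, but ranked 6 and 7 in the shallower and the deeper young library, with 0.418 and 3.22 FPKM. Fgfr1 was the highest in both young libraries, with 5.03 and 9.54 FPKM, and had 0.974 and 0.756 FPKM in those old pools. In these 2 pools all receptors other than Egfr lay at or under 1.22 FPKM. Pdgfra ranked 7 in both old pools and in the shallower young library, yet 3 in the deeper young library, with 4.82 FPKM. Counts of the 17-month pool, scaled by the same transcript lengths, also put Egfr first and Pdgfra last.

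The young libraries held the receptors in different proportions, and other cell types with them. The deeper library had 23.3 times the Pdgfra level of the shallower one, 3.24 times that of Egfr and 2.67 times that of Met. Pdgfrb was 1.20 times as high, while Fgfr1, Fgfr3 and Fgfr2 were lower in the deeper library, at 0.800, 0.610 and 0.460 times the shallower level. Over the same pair of libraries the summed stellate and fibroblast markers differed 13.6 times and the α-cell markers 15.1 times. Pericyte and smooth muscle markers differed 2.91 times and endothelial markers 2.08 times. Such sums weigh the highest genes most. Gcg alone had 1766 and 32655 CPM in the shallower and the deeper library, and Col1a1 57.1 and 1475 CPM. Irx2 of the α-cell list, Kcnj8 of the pericyte list and Esam of the endothelial list were lower in the deeper library. Duct markers differed 0.919 times and β-cell markers 0.827 times. These are ratios of 2 libraries with no replicate.

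Markers of other cell types fell with the receptors, where 7.93% of all genes tested fell. Stellate and fibroblast markers fell for 15 of 15 tested, with a summed level of 12.0 to 17.0 CPM in old pools, against 326 and 4415 CPM in the shallower and the deeper young library. Pericyte and smooth muscle markers fell for 7 of 10, with 10.2 to 18.9 CPM in old, against 359 and 1045 CPM in young. Endothelial markers fell for 12 of 12, with 62.4 to 101 CPM in old, against 634 and 1319 CPM in young. Each of these sums was thus lower in every old pool than in either young library. So were the sums of the duct, acinar, δ- and PP-cell, α-cell, and macrophage and lymphocyte lists, given next.

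Among epithelial and endocrine cells, duct markers fell for 5 of 9 (124 to 158 CPM in old, 464 and 426 CPM in young) and acinar markers for 10 of 12 (181 to 226 CPM in old, 1833 and 2453 CPM in young). δ- and PP-cell markers fell for 6 of 6, with 233 to 430 CPM in old, against 3416 and 10362 CPM in young. α-cell markers fell for 2 of 8, with 1262 to 2117 CPM in old, against 2285 and 34457 CPM in young. Macrophage and lymphocyte markers fell for 4 of 10, with 20.6 to 36.4 CPM in old, against 192 and 294 CPM in young. No marker of these lists rose, where 7.93% of all genes tested fell and 3.17% rose. Pdpn, Amy2a5 and Ptf1a had no read in any old pool. β-cell markers rose for 3 of 12 and fell for none. The part of these cells in the fall of the receptors was not tested, and in such bulk samples fewer cells of a type and less RNA per cell cannot be told apart.

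Col1a2, a collagen of fibroblasts, had 1.12, 0.536 and 1.44 CPM in the old pools, against 65.2 and 901 CPM in the young libraries, and the deeper young library was the higher, as for Pdgfra. Krt19, a keratin of duct cells, had 0.0375, 0.119 and 0.0424 CPM in old, against 33.2 and 16.8 CPM in young, and the shallower young library was the higher, as for Fgfr2 and Fgfr3. The duct list was mixed in this: Anxa3, with 6.90 and 50.1 CPM in the shallower and the deeper young library, and Muc1, with 24.6 and 31.2 CPM, were higher in the deeper one, and the duct keratin Krt7 and the chloride channel Cftr did not pass the test between ages. Rgs5, a pericyte gene, had 7.05, 3.01 and 1.32 CPM in old, against 18.0 and 38.8 CPM in young.

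The genes whose profile over the 5 libraries was most like that of each receptor were taken from 11262 tested genes with a mean of at least 5 CPM. Likeness was the root-mean-square difference of log2 CPM, centred on each gene's mean. Nearest to Pdgfra were Akp3 (0.28), Pirt (0.29) and Dkk3 (0.44), and nearest to Pdgfrb were Mgam (0.17), Abcc9 (0.25) and Cpa1 (0.27). Abcc9 is one of the pericyte markers and Cpa1 one of the acinar markers above. Cadm1 (0.26), 4930523C07Rik (0.30) and Vwa1 (0.31) were nearest to Fgfr1, and Ly6a (0.27), Il11ra1 (0.30) and Reln (0.30) to Fgfr2. Mctp2 (0.20), Cartpt (0.31) and Hif3a (0.35) were nearest to Fgfr3. Egfr had the closest neighbours, Stx12 (0.07), Mynn (0.09) and Tbpl1 (0.09), none of which passed the test. Met was nearest to Olfm1 (0.17), Mgat4a (0.17) and Hbegf (0.22), the last of which encodes a ligand of Egfr. With 5 libraries in 2 groups, such closeness is a description of a shared pattern only.

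Upstream of the receptors, 2 of 19 tested ligand genes fell and none rose, a share near the 7.93% of all genes tested that fell, with a median log2 fold change of -1.33. Hgf, the ligand of Met, had no read in any old pool and 32 and 3 reads in the shallower and the deeper young library, and did not pass the filter on low counts. Fgf1, which binds all FGF receptors, had 4.46, 2.12 and 2.97 CPM in old pools, against 18.5 and 31.5 CPM in young libraries, a log2 fold change of -2.82 ± 0.59 (SE; edgeR adjusted p = 0.0260). Fgf7, a mesenchymal ligand of the epithelial form of Fgfr2, had 2, 3 and 1 reads in old pools, against 23 and 52 reads in young libraries (-5.52 ± 1.34 SE; edgeR adjusted p = 0.0381). Both were lower in every old pool than in either young library.

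Related receptors and co-receptors had the largest share of falls among the 5 pathway lists, 6 of 20 tested. Among all genes tested 7.93% fell and 3.17% rose. None of this list rose, and its median log2 fold change was -2.93. Csf1r is in this list and in that of macrophages. Erbb2, the partner of the other EGF receptor family members, had 0.0750, 0.149 and 0.0849 CPM in old pools, against 36.7 and 15.0 CPM in young libraries. Its log2 fold change was -7.72 ± 0.82 (SE; edgeR adjusted p = 0.00452). Erbb3, a neuregulin receptor, had 0.712, 1.52 and 3.48 CPM in old, against 32.8 and 48.2 CPM in young (-4.21; edgeR adjusted p = 0.0155). Erbb2 was thus near 0 in the old pools and Erbb3 low there, while Egfr itself had 16.9 to 25.1 CPM. Erbb4, also a neuregulin receptor, had 2 reads over the old pools and 73 over the young libraries, 52 in the shallower and 21 in the deeper. Pooled over libraries, the young level was 159 times the old one, with an exact 95% interval of 42.4 to 1335 for counting error only. The edgeR adjusted p was 0.0325. Nrp1, a co-receptor of endothelial cells, had 12.2, 7.60 and 4.37 CPM in old, against 72.8 and 113 CPM in young (-3.39; edgeR adjusted p = 0.00672).

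Inside the cell most of the pathway was not called. Of 33 adaptors and kinases tested, 1 rose and 1 fell, where 3.17% of all genes rose and 7.93% fell, with a median log2 fold change of -0.03. Gab1, the docking protein of Met, fell, with 1.01, 0.209 and 1.36 CPM in old, against 12.5 and 114 CPM in young (-6.03 ± 1.06 SE; edgeR adjusted p = 0.0162). Its young value came mostly from the deeper library, as for Pdgfra and Met.

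Of 22 feedback inhibitors tested 2 fell and none rose, again near the 7.93% of all genes, with a median log2 fold change of -0.97. Errfi1, an inhibitor of the EGF receptor kinase, had 84.9, 84.9 and 108 CPM in old pools, against 229 and 236 CPM in young libraries (-1.16 ± 0.25 SE; edgeR adjusted p = 0.0274). Lrig3, a transmembrane protein related to the EGF receptor inhibitor Lrig1, had no read in any old pool and 41 and 23 reads in the young libraries (edgeR adjusted p = 0.0371). It was at least 92.8-fold lower in old when 3 reads over the group are taken as the floor. Of 16 transcriptional targets 3 fell and none rose, with a median log2 fold change of -1.77. Ccnd1, the cyclin induced by growth factors, had 36.0, 33.5 and 31.7 CPM in old, against 218 and 185 CPM in young (-2.42 ± 0.23 SE; edgeR adjusted p = 0.00384). Its old pools lay close together, far under both young libraries. Fosl2, a transcription factor of the AP-1 family, had 21.1, 18.5 and 25.8 CPM in old, against 82.5 and 151 CPM in young (-2.25; edgeR adjusted p = 0.0116). Etv1, an ETS factor downstream of FGF signals, had 4.76, 3.31 and 4.29 CPM in old, against 7.84 and 126 CPM in the shallower and the deeper young library. Its call (-3.86; edgeR adjusted p = 0.0355) thus set old pools against 1 high library.

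At the promoters, from 1000 bases before to 500 after the start, no receptor differed by the 10 percentage points that a call required, so 0 of 7 were called, where 9.19% of 21344 promoters were (5.1% lower and 4.09% higher in old). Two-sided Fisher's exact tests, adjusted with Benjamini-Hochberg over those promoters, compare the 2 libraries and not the ages. Calls of 1 read at neighbouring CpGs are not independent, and 11656 promoters had an adjusted p under 0.05. Pdgfra had 5.62% of 2633 calls methylated in the old library and 6.85% of 2482 in the young one. Fgfr3 had 5.12% of 6390 calls in old and 4.40% of 9090 in young, and Met 4.19% in old and 3.87% in young. These 3 receptors had almost no promoter methylation in either library, as did 42.4% of all promoters, which lay under 10% in both.

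Fgfr1, Fgfr2 and Egfr were slightly more methylated in the old library. Egfr had 12.7% of 3112 calls in old (95% Wilson interval 11.6 to 13.9%) and 6.46% of 3608 in young (5.70 to 7.31%), with an adjusted p of 3.88e-17 by Fisher's exact test. Fgfr2 had 16.4% in old (14.8 to 18.2%) and 9.83% in young (8.81 to 10.9%; adjusted p = 1.13e-10, Fisher's exact test). Fgfr1 had 11.9% in old and 9.27% in young (adjusted p = 4.71e-06, Fisher's exact test). Read only from 250 bases before to 50 after the start, Fgfr2 was called higher, with 41 of 55 calls methylated in old (74.5%) and 59 of 116 in young (50.9%; adjusted p = 0.0105, Fisher's exact test). At Fgfr2 that window holds 4 CpGs, among them those in capitals in its sequence. No other receptor was called there, where 2288 of 17610 promoters tested were called. Pdgfrb had 7 of 40 calls methylated in old (17.5%) and 35 of 100 in young (35.0%, adjusted p = 0.0781, Fisher's exact test). Pdgfra had 5.61% in old and 13.0% in young (adjusted p = 0.00654, Fisher's exact test). Met was also lower in old in that window, and Egfr, Fgfr1 and Fgfr3 were higher.

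Pdgfrb had the only promoter of the 7 at middle levels, with 49.6% of 605 calls methylated in the old library (45.6 to 53.6%) and 54.1% of 592 in the young one (50.03 to 58.0%; adjusted p = 0.198, Fisher's exact test). Averaged over its 32 CpGs with equal weight, the values were 41.1% in old and 55.1% in young, a difference of -14.0 points. The size thus depended on how reads were weighted, and on the window, as given above. Upstream starts of Pdgfra and Fgfr3 gave 10.9% in old and 14.3% in young, and 8.48% in old and 7.54% in young. Gene bodies were methylated at 57.1 to 84.9% in old and 51.0 to 84.8% in young. The body of Fgfr2 had 66.5% in old and 59.4% in young and that of Pdgfrb 73.5% in old and 77.3% in young; both differences lay inside the 5th to 95th percentile of all bodies, -5.70 to 7.57 points.

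**Figure D3:**
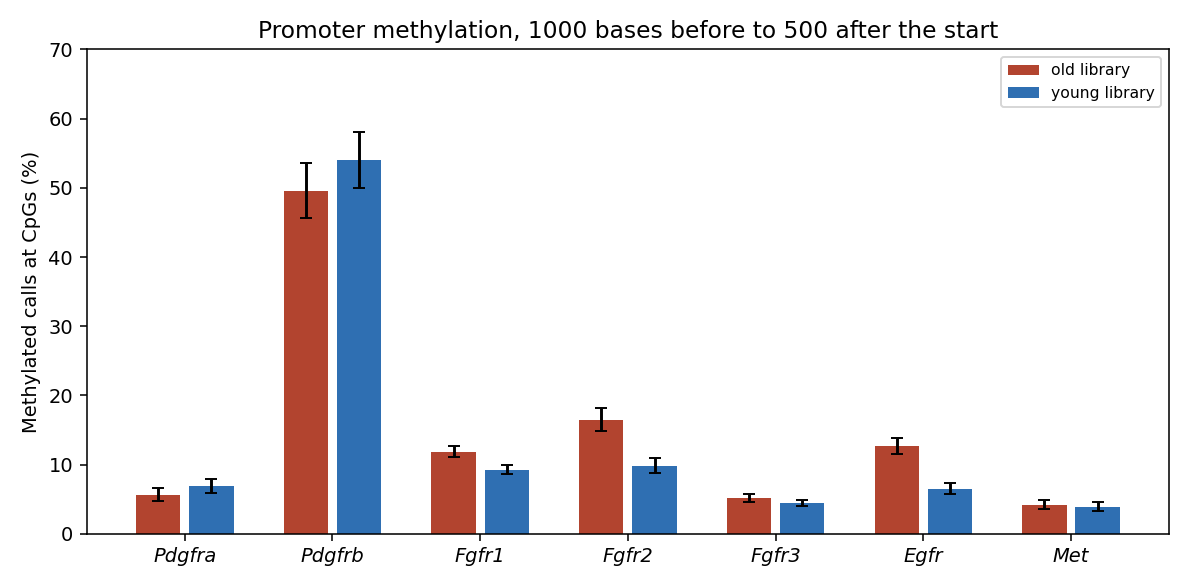
Methylated share of CpG calls in each receptor promoter, in percent, in the old library (left bar) and the young library (right bar), with 95% Wilson intervals. Pdgfrb lies near 50% in both, and the other receptors stay under 20%.

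Around the starts, 633 windows of 1 kb within 50 kb had enough CpGs, of which 10 were lower and 10 higher in the old library by at least 20 percentage points. That is 1.58% each way, against 3.89% lower and 4.18% higher, 8.07% in all, over the 1677128 windows of the genome. With at least 10 reads per CpG, 27 of 571 windows near the receptors and 6.21% of those of the genome passed the difference, so the gap between the shares was smaller; it was not tested. Pdgfra held 5 of the lower ones among its 90 windows, and 1 of the higher, at -10690 bases from the start, with 87.4% of 151 calls in old and 66.4% of 152 in young. The lower window 4310 bases after its start had 35.0% of 468 calls methylated in old (30.9 to 39.5%) and 60.7% of 285 in young (54.9 to 66.2%). Another, 2310 bases after the start, had 60.5% in old and 82.0% in young. Both of these lay inside the gene and beyond its nearly unmethylated start.

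Fgfr1 had its 2 differing windows side by side just upstream. At -2744 bases from the start 87.3% of calls were methylated in old and 60.7% in young, and at -1744 bases 93.8% of 64 calls in old and 55.9% of 59 in young. Both were higher in the old library. Pdgfrb had 1 lower window, 10696 bases after its start, with 67.3% of 526 calls in old and 89.2% of 517 in young. Its 1 higher window, at -40304 bases, had 90.6% of 32 calls in old and 70.1% of 77 in young. Met had 2 lower and 3 higher windows of 84, the largest difference being 34.9% of 63 calls in old against 88.0% of 25 in young, at -34456 bases from the start. Egfr had 1 lower and 3 higher of 69, among them 84.6% of 117 calls in old and 43.4% of 76 in young, at -40706 bases from the start. Fgfr2 had 1 lower window of 100 and Fgfr3 none of 98.

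**Figure D4:**
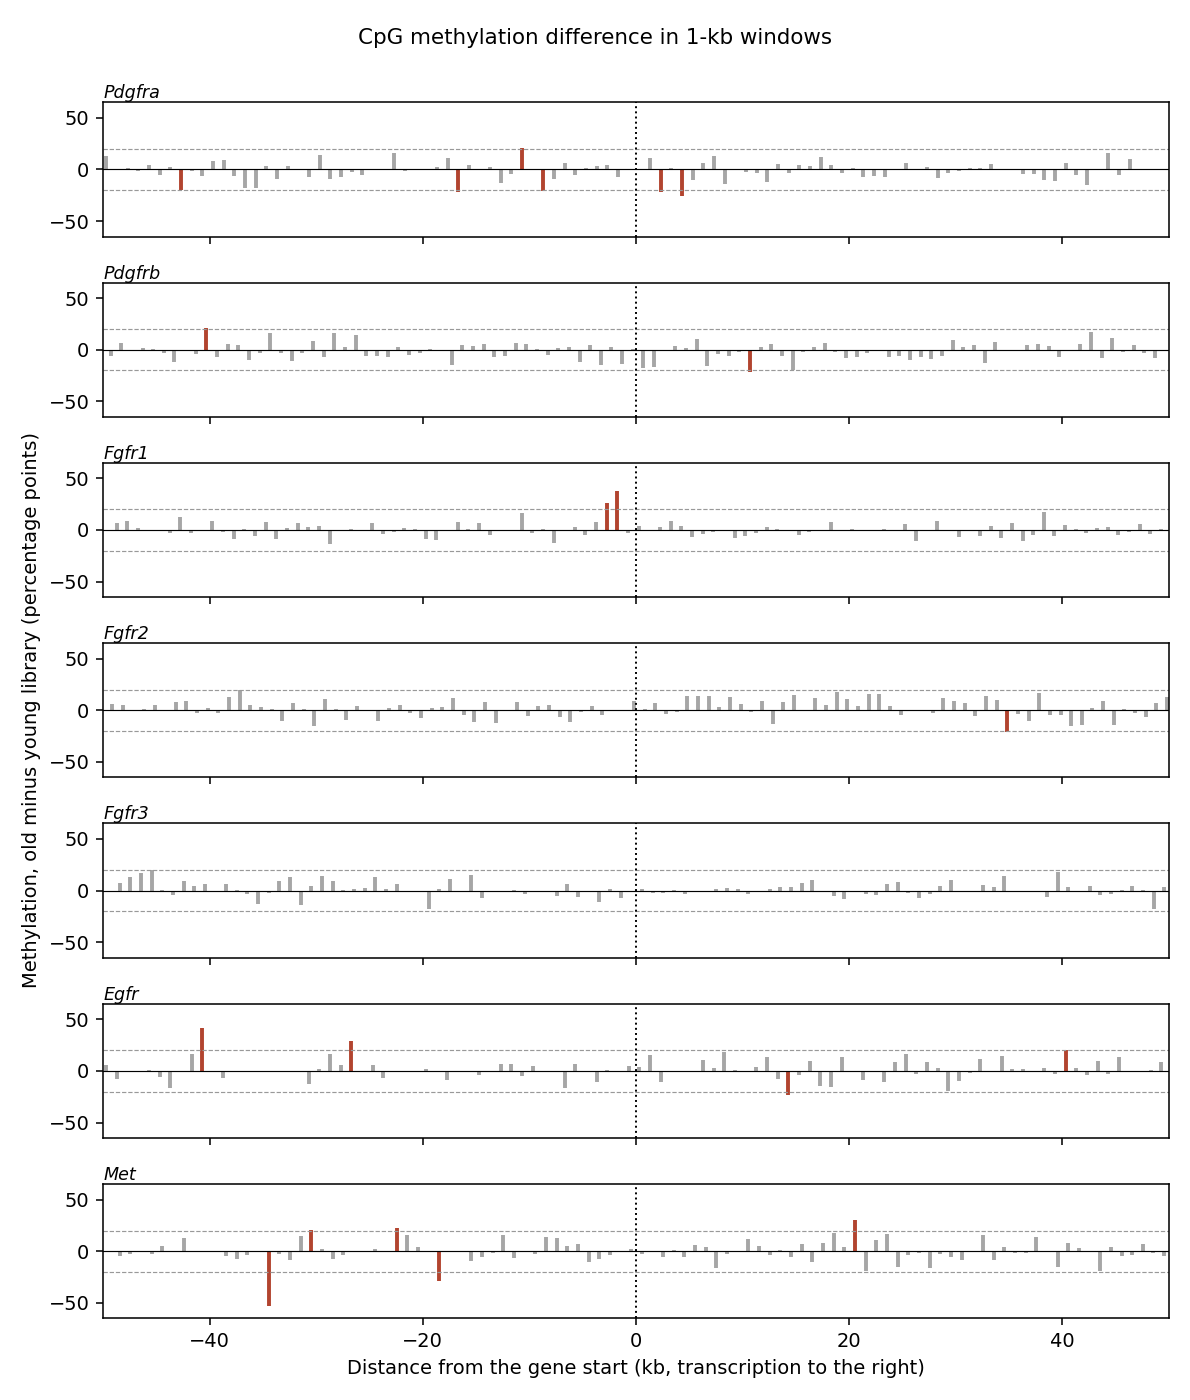
Methylation of 1-kb windows, old minus young library in percentage points, by distance from each receptor start. Colour marks differences of at least 20 points (dashed lines); they are scattered, with a pair just before the Fgfr1 start and none at Fgfr3.

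H3K27me3, the repressive histone mark laid down by Polycomb, lay over the promoters of most receptors. The old list had a region over 6 of 7 promoters, all but Egfr, where 41.1% of 22470 starts had one. In the young list it was 5 of 7, all but Egfr and Met, where 27.7% of starts had one. Lists are of different size, 38007 regions over 649 Mb in old and 31187 over 452 Mb in young, so a region held by 1 list shows no change by itself. Within 50 kb to either side, Pdgfrb was covered over the full 100 kb in old and 69.2 kb in young, and Pdgfra over 97.0 kb in old and 80.0 kb in young. Fgfr3 had 66.0 kb in old and 41.0 kb in young, and Fgfr2 57.7 kb in old and 49 kb in young. The median start had 27 kb in old and 12.0 kb in young, so all 4 lay above it in both lists.

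Fgfr1 and Met differed most between the lists. At Fgfr1 the old list held a region of 71000 bases that ran across the start, for 75.2 kb covered in all, while the young list held 1 region of 8000 bases that ended 244 bases before the start. Met had 5 regions and 39.0 kb covered in old, the central one across its start, and none in young. Egfr had no region within 50 kb in either list. The design text names 2 old replicas, and no source used here says whether the old list joins them. No test is possible with 1 list per age.

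**Figure D5:**
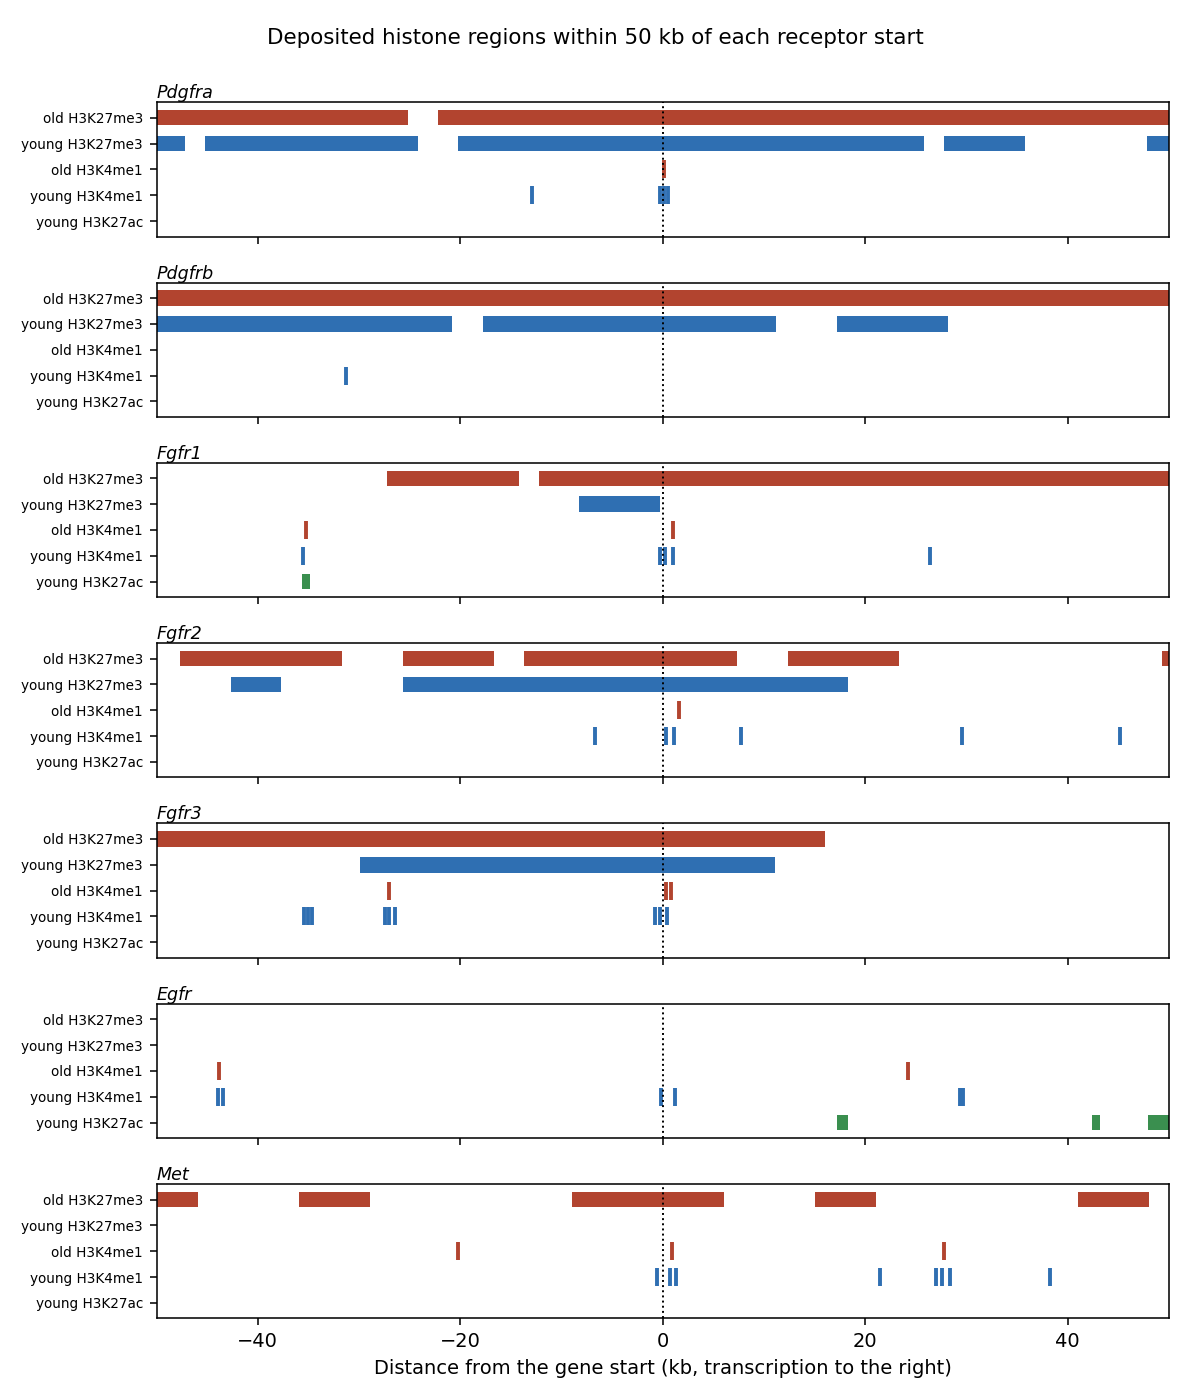
Deposited regions within 50 kb of each receptor start, by distance: H3K27me3 in old and young, H3K4me1 peaks (ticks) in old and young, and H3K27ac in young. H3K27me3 covers the start in old for every receptor but Egfr, and near Egfr only H3K4me1 and H3K27ac are drawn.

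H3K4me1, a mark of enhancers and promoter flanks, gave 12 peaks near the receptors in the old list and 39 in the young one. The old list had 1 at Pdgfra, 0 at Pdgfrb, 2 at Fgfr1, 1 at Fgfr2, 3 at Fgfr3, 2 at Egfr and 3 at Met. The young list had 4 at Pdgfra, 1 at Pdgfrb, 5 at Fgfr1, 6 at Fgfr2, 9 at Fgfr3, 6 at Egfr and 8 at Met, more at each receptor. The median start had 2 in old and 5 in young. The old library was also the less enriched, with 6.00% of tags in peaks against 12.45% in young, and its list held 36207 peaks against 77291; its part in these counts was not tested. Of the old peaks 7 of 12 (58.3%) and of the young peaks 34 of 39 (87.2%) overlapped none of the other list, where it was 64.4% of the whole old list and 83.3% of the whole young list, so the receptors lay near the background. A peak of the old list lay over the promoter window at Pdgfra and Fgfr3 (22.4% of all starts), and of the young list at every receptor but Pdgfrb (37.8%).

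H3K27ac, which marks active elements and was mapped in young cells, lay over none of the 7 promoters, where 34.0% of all starts had a region. Egfr had 3 regions nearby, all inside the gene. The one 47905 to 50600 bases after its start ranked 278 of 15754 by the authors' score, and the others began 17188 and 42421 bases after it. Fgfr1 had 1 region, about 35 kb before its start, overlapped by a peak of H3K4me1 in either age. No other receptor had one within 50 kb.

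CpGs within 250 bases of the H3K4me1 peak centres could be compared at 11 old and 38 young peaks near the receptors. Of these, 1 old and 2 young peaks were lower in the old library by at least 20 points and none was higher. Over the whole lists 9.70% of old and 10.5% of young peaks were lower, and 2.87% of old and 3.24% of young peaks higher. The peak shared by both ages at -43821 bases from the Egfr start had 12 of 211 calls methylated in old, or 5.69% (3.28 to 9.68%), and 46 of 170 in young, or 27.1% (20.9 to 34.2%). A young peak at -43430 bases from the Egfr start had 6.90% of 203 calls in old and 22.9% of 175 in young. A young peak 21453 bases into Met had 10 of 32 calls in old, or 31.2% (18.0 to 48.6%), and 23 of 36 in young, or 63.9% (47.6 to 77.5%). At the receptors whose RNA fell, no H3K4me1 peak differed by 20 points.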

How the data were processed

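The authors' deposited RNA table holds read counts per RefSeq transcript, 28644 transcripts of 22869 genes; the transcript with the highest total stood for its gene. The submitters' processing notes list edgeR, HOMER, STAR, Bowtie 0.12.7 and CASAVA 1.8.2 without roles, and build mm9. No source used here names the counter or its strand setting, so overlapping and antisense genes may share reads. The deposited FPKM table gave transcript positions and the order of levels within a library. Its column for the 17-month pool follows the counts of the shallower young library (SD of log2 ratios 0.0041 over 11770 transcripts) and not its own (1.05), so it was not used.

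H3K4me1 and H3K27ac peaks came, per the file headers, from HOMER on 1 library against 1 input, at a false discovery rate of 0.01 and at least 2-fold over input; the deposited tag signal, fold ratio and p-value per peak were not used in tests, and the score only ranked peaks within a list. The deposited H3K27me3 score and p-value columns have no header, and no source used here names their caller. The deposited CpG tables give the methylated fraction and read counts per CpG; no source used here gives their filters or any conversion correction.

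RNA was tested with edgeR 4.0.16 in R 4.3.3 (quasi-likelihood, TMM, filterByExpr, two-sided, Benjamini-Hochberg over all genes tested, threshold 0.05). The SE given with a log2 fold change is its absolute value divided by the square root of the test's F statistic. In a test on simulated counts, 36.4% of tested genes changed 4-fold and 71.4% of those changed 16-fold were recovered. Methylation was pooled over CpGs with at least 5 reads in both libraries, at least 3 CpGs per window, and tested with Fisher's exact test (scipy 1.17.1). Peaks were shared if they overlapped by at least 1 base. Young columns carry no replicate number and were named by depth. Alternatives were DESeq2 1.42.0, RLE factors, no filter, summed transcripts, each library left out, and other windows, read minimums and peak rules. Named were the receptors, up to 4 called genes per pathway list with the smallest adjusted p, the 3 genes nearest in profile to each receptor and set marker genes. A called gene of the adaptor and kinase list is counted but not reported here. The members and lists were chosen with earlier results of these data known, so no list was tested. Sequences are from RefSeq, GRCm38.p6; all other positions are mm9 and no position was converted.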

Additional observations from a re-analysis of the deposited data

How the results depend on the processing

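For RNA, 1724 genes were called; RLE factors, no filter and summed transcripts gave counts within 1.5 times that, DESeq2 called 4123, and leaving out 1 library gave 331 to 5467 genes. Receptors called were 5, and 3, 2 and 2 with 1 old pool left out in turn, all of them falls. The median of all genes was -0.17 with RLE factors, against -0.05 with TMM, and all 7 receptors kept their sign in every fit in which they were tested. Of single receptor values, 50 stayed on their side of the threshold, 8 lost a call and 4 gained one. No paired analysis was possible because the young columns carry no replicate number. Receptor promoters called in methylation were 0, but 1 from 250 bases before to 50 after the start (Fgfr2) and 1 with the mean of CpG fractions (Pdgfrb), the difference alone. Of all promoters, 2288 of 17610 were called in that shorter window and 2318 of 21344 with the mean of CpG fractions. Windows past the difference near receptors were 20 of 633, where 8.07% of all windows of the genome passed. At a difference of at least 30 points they were 4 of 633, against 2.22% of the genome. With at least 5 CpGs per window they were 14 of 563, against 4.49% of the genome. H3K4me1 peaks held by the old list alone were 7 of 12, 5 of 7 in the higher-scoring part of the list and 3 of 6 within 20 kb. By the young list alone they were 34 of 39, 22 of 24 in the higher-scoring part and 16 of 19 within 20 kb. Sharing by centres within 500 bases moved the shares most, to 2 of 12 in old and 25 of 39 in young. Shares of the whole lists under these settings are not given, so the background there is unknown. H3K27me3 counts at the starts did not move. Depth limits Pdgfra, Erbb4, Fgf7 and Lrig3 most, with 0 to 6 old reads, and windows with under 60 calls.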
